A study of Homo sapiens with 6 samples.

Results

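The genes described here encode enzymes and enzyme subunits that modify transfer RNA, leaving out the pseudouridine synthases. They were chosen by name, and all 55 named genes were found among the 60605 genes of the deposited table. The cells were MDA-MB-231, an established human line of triple-negative breast cancer. They had been infected with pLKO.1 lentivirus carrying either a control shRNA (shControl, n = 3 libraries) or an shRNA against PUS1 (shPUS1, n = 3 libraries) and kept under puromycin in both groups. Poly(A) RNA was sequenced, so the mRNAs of the enzymes were measured and neither tRNA nor its modifications were. The titles call the replicates biological, but no source used here says that they came from separate infections, and the p-values then measure only the spread between these libraries. Which of the PUS1 hairpins the sequenced cells carried is not stated in the study's text. The shPUS1 libraries are the only knockdown group, so loss of PUS1 and any other effect of the hairpin cannot be told apart.

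A newly made tRNA is changed base by base before it works in translation. Modifications in the body of the molecule, such as methylated guanosine or dihydrouridine, hold its fold together, while those at the wobble position and at the base just after the anticodon tune decoding. Mitochondria carry a set of their own enzymes for their own tRNAs. PUS1 belongs to this field as a synthase that turns uridine into pseudouridine in cytosolic and mitochondrial tRNA, and the comparison asked how mRNAs of the other tRNA modification enzymes stood when PUS1 was knocked down.

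The targets of the 3 PUS1 hairpins that the study designed are shown because a hairpin can also reach transcripts that share part of its site. The longest run that any of the 55 genes' transcripts (GENCODE 29) shared with a target, in capitals, was 10 of 21 bases, and 4.29% to 5.07% of all tested genes shared a run at least as long.
shPUS#1, run found in WDR4: tGTCGGGTCCTcacaattcaa
shPUS#2, run found in TRMT44: gcactTCGAGAAGTAcaacca
shPUS#2, run found in ELP4: gcacttcgagAAGTACAACCa
shPUS#3, run found in TRMT1: gcacgCACAACTTCCacaatt

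Library totals lay between 14241505 and 19625998 estimated counts. PUS1 itself (chromosome 12, from 131929200 to 131945896) was at 2.57, 4.66 and 2.18 FPKM in shControl and at 1.13, 0.95 and 0.93 FPKM in shPUS1, with no overlap. Its log2 fold change was −1.64 (SE 0.32, adjusted p = 0.0462 by edgeR's quasi-likelihood test with Benjamini-Hochberg adjustment over all tested genes), and −1.20 (adjusted p = 0.00311) without shControl replicate 2. The call was lost without shControl replicate 1 (adjusted p = 0.0906) or without shPUS1 replicate 1, 2 or 3 (adjusted p = 0.208, 0.253 and 0.192). shControl replicate 2 stood apart from all other libraries. Its log2 CPM values correlated with those of shControl replicates 1 and 3 at 0.951 and 0.952 across genes, against 0.981 between those replicates and 0.987 to 0.991 among the shPUS1 libraries, so results are given with and without it. The 5 markers of MDA-MB-231 cells were all expressed, with a summed level of 825 to 1039 FPKM in shControl and 614 to 649 FPKM in shPUS1. Of the luminal, leukocyte and neuronal markers checked, TFF1 and CD3E were listed at 0 in every library. Other markers on these lists were detected in every library. GATA3 was at 1.55 to 2.16 FPKM, CD14 at 1.17 to 2.95 FPKM and SNAP25 at 0.49 to 1.29 FPKM. The summed levels of the 3 lists overlapped between the groups.

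All 55 genes passed the filter on low counts and were tested among 14748 genes. With all libraries, 1 gene, THG1L, was lower in shPUS1 at an adjusted p under 0.05, beside 0.841% of all tested genes, and 0 were higher, beside 1.74%. At an unadjusted p under 0.05, 17 were lower (12.8% of all tested genes) and 2, TRMT44 and YRDC, were higher (12.6%). Without shControl replicate 2, 6 genes were lower (8.79% of 15130 tested genes), namely DUS2, OSGEP, THG1L, TRMT13, TRMT5 and TYW3. ADAT3 and YRDC were then the 2 higher genes (9.8% of all tested genes). DESeq2 with all libraries called 7 lower (5.31% of its tested genes), namely DUS3L, OSGEP, OSGEPL1, QTRT1, THG1L, TRMT13 and TRMT5, and 0 higher (6.96%). DESeq2 without shControl replicate 2 called 5 lower (8.06%) and 2 higher (12.4%). limma's voom with sample quality weights, which gave shControl replicate 2 the lowest weight of the 6 libraries, called 8 lower (9.48%) and 2 higher (11.5%). Without shControl replicate 2 the share of the 55 genes called lower was 10.9% in edgeR and 9.09% in DESeq2, near that of all tested genes. With all libraries it was above that of all tested genes in DESeq2 (12.7%), in voom (14.5%) and at an unadjusted p under 0.05 (30.9%). In edgeR with all libraries it was 1.82%, which is 1 gene. The share called higher, 3.64% without shControl replicate 2, was below that of all tested genes.

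The direction of the differences leaned to one side. The log2 fold change of shPUS1 over shControl was below 0 for 47 of the 55 genes (85.5%), against 52.7% of all tested genes, and its median was −0.28 against −0.03. Without shControl replicate 2 it was below 0 for 37 genes (67.3%), against 52.1%, and the median was −0.11 against −0.02. In 21 of the 55 genes (38.2%) every shPUS1 library lay below every shControl library, as it did in 17.3% of all tested genes. In 3 genes, ADAT3, TRMT44 and YRDC, every shPUS1 library lay above every shControl library, against 18.8% of all tested genes.

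Much of that lean lay in a single library. shControl replicate 2 was the highest of the 6 libraries for 43 of the 55 genes (78.2%), against 34.4% of all tested genes. Relative to each gene's mean, the median of the 55 genes on the log2 CPM scale was 0.43 in shControl replicate 2, 0.03 and −0.05 in shControl replicates 1 and 3, and −0.11, −0.17 and −0.12 in shPUS1 replicates 1, 2 and 3. The same medians over all tested genes were within 0.01 of 0 in every library. The shPUS1 libraries thus lay below shControl replicates 1 and 3 by less than those lay below shControl replicate 2.

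**Figure D1:**
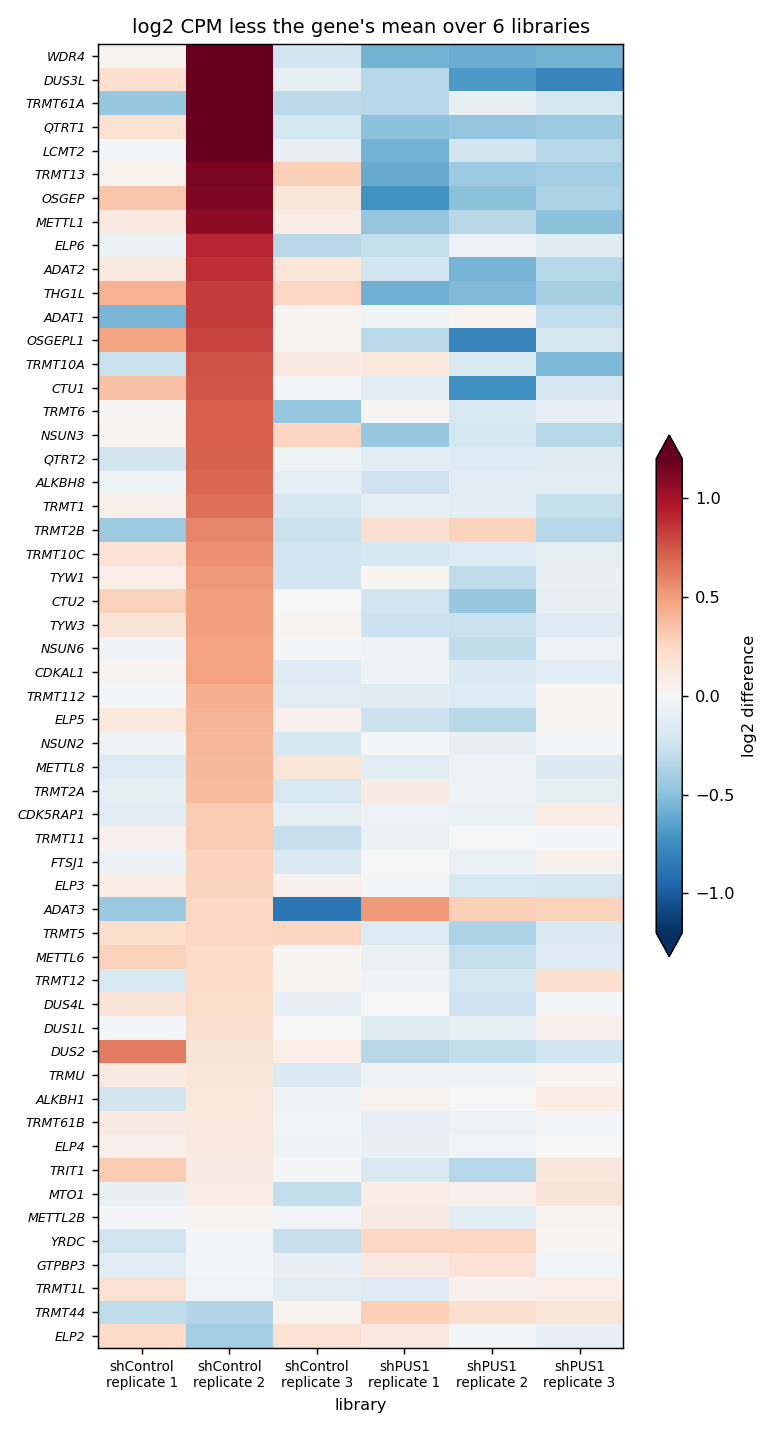
Log2 CPM of each of the 55 genes (rows) in each library (columns), less the gene's mean over the 6 libraries, with genes ordered by their value in shControl replicate 2 and values beyond the colour scale drawn in its end colour. The column of shControl replicate 2 holds the highest value for 43 genes, and the shPUS1 columns are blue for most of the genes at the top.

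THG1L encodes the guanylyltransferase that adds the extra guanosine at the start of histidine tRNA. Its mRNA (ENSG00000113272, chromosome 5, from 157731420 to 157741449, plus strand) was at 5.29, 6.78 and 4.78 FPKM in shControl and at 2.56, 2.67 and 2.92 FPKM in shPUS1. The means were 5.62 ± 1.04 and 2.72 ± 0.18 FPKM (SD, n = 3 each). The highest shPUS1 library lay well below the lowest shControl library, whichever shControl library was considered. The log2 fold change was −1.03 (SE 0.20, adjusted p = 0.0466, edgeR), which is 0.489 of the shControl level, and −0.85 (SE 0.13, adjusted p = 0.00560) without shControl replicate 2. THG1L passed in each of the fits with and without shControl replicate 2 listed above, but its adjusted p in edgeR was 0.0934 without shControl replicate 1 and 0.235, 0.253 and 0.189 without shPUS1 replicate 1, 2 and 3.

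OSGEP is the catalytic subunit of the KEOPS complex, which attaches a threonylcarbamoyl group to the adenosine after the anticodon of cytosolic tRNAs. It was at 4.68, 7.69 and 4.16 FPKM in shControl and at 2.16, 2.57 and 2.76 FPKM in shPUS1 (ENSG00000092094, chromosome 14, from 20446401 to 20455089). The groups did not overlap, and the log2 fold change was −1.13 (SE 0.27, adjusted p = 0.0623, edgeR) with all libraries and −0.78 (SE 0.14, adjusted p = 0.00834) without shControl replicate 2.

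TRMT13 methylates the ribose of a nucleotide in the acceptor stem. It was at 4.29, 8.78 and 5.16 FPKM in shControl and at 2.66, 3.01 and 3.04 FPKM in shPUS1 (ENSG00000122435, chromosome 1, from 100133150 to 100150498). Its shControl level was set apart by replicate 2, yet the other shControl libraries also lay above all shPUS1 libraries. Its log2 fold change was −1.06 (adjusted p = 0.0816, edgeR) and, without that replicate, −0.66 (SE 0.13, adjusted p = 0.0120).

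TRMT5, which methylates the guanosine after the anticodon, was the called gene with the smallest spread within shControl. It was at 8.28, 8.07 and 8.66 FPKM in shControl and at 6.18, 5.35 and 6.14 FPKM in shPUS1 (ENSG00000126814, chromosome 14, from 60971441 to 60981170). Its log2 fold change was −0.48 in edgeR with all libraries (SE 0.13, adjusted p = 0.0794) and also −0.48 without shControl replicate 2 (SE 0.11, adjusted p = 0.0176), so the value did not rest on that library.

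DUS2 reduces uridine to dihydrouridine in the D-loop. It was at 4.29, 2.97 and 2.98 FPKM in shControl and at 2.14, 2.22 and 2.31 FPKM in shPUS1 (ENSG00000167264, chromosome 16, from 67987746 to 68079320). Here shControl replicate 1 was the high library, and the log2 fold change was −0.59 (adjusted p = 0.123, edgeR) and −0.67 without shControl replicate 2 (SE 0.17, adjusted p = 0.0307). TYW3, a methyltransferase of the wybutosine pathway, was at 14.75, 17.82 and 13.75 FPKM in shControl and at 10.77, 10.77 and 11.61 FPKM in shPUS1 (ENSG00000162623, chromosome 1, from 74733152 to 74766678). The groups were again separate, and its log2 fold change of −0.33 without shControl replicate 2 lay at the edge of the threshold (SE 0.10, adjusted p = 0.0491, edgeR).

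YRDC makes the activated threonylcarbamoyl group that OSGEP transfers. It was at 10.48, 11.68 and 10.33 FPKM in shControl and at 14.28, 14.39 and 12.34 FPKM in shPUS1 (ENSG00000196449, chromosome 1, from 37802945 to 37808208). Every shPUS1 library lay above every shControl library, opposite to OSGEP in the same pathway. The log2 fold change was 0.35 (SE 0.15, adjusted p = 0.186, edgeR) and 0.43 (SE 0.11, adjusted p = 0.0324) without shControl replicate 2.

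ADAT3 is the partner of the deaminase ADAT2, with which it makes inosine at the wobble position. ADAT3 was at 1.35, 2.11 and 1.01 FPKM in shControl and at 2.60, 2.24 and 2.19 FPKM in shPUS1 (ENSG00000213638, chromosome 19, from 1905399 to 1913447). The values of shControl replicate 2 and the lowest shPUS1 library nearly touched, and the log2 fold change was 0.65 (adjusted p = 0.242, edgeR) and 1.02 (SE 0.23, adjusted p = 0.0193) without that replicate. The count of ADAT3 is uncertain, because the gene lies inside SCAMP4 on the same strand and 25.0% of the 100-base stretches of its transcripts also occur in SCAMP4 transcripts. SCAMP4 itself stood at 0.05 on the log2 scale.

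**Figure D2:**
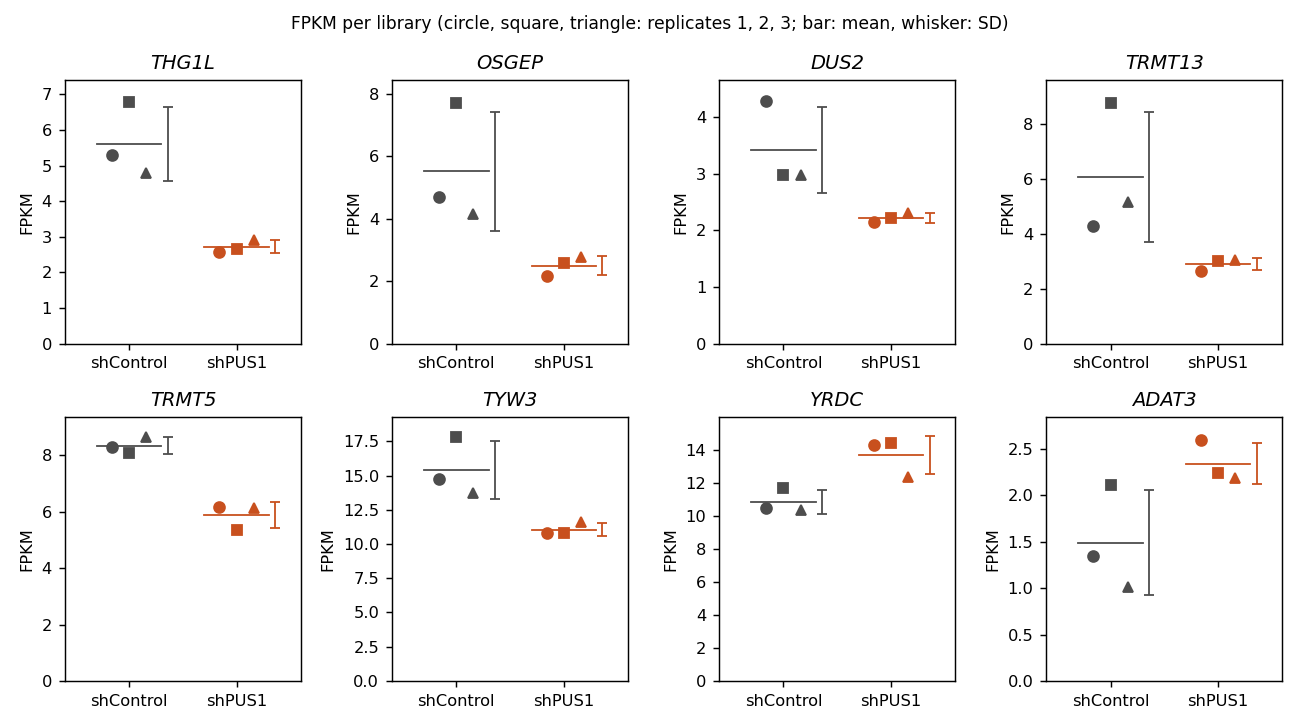
FPKM of the 8 genes with an adjusted p under 0.05 without shControl replicate 2, in each library (circle, square and triangle for replicates 1, 2 and 3), with the group mean as a bar and its SD as a whisker over n = 3, on axes that start at 0. The shPUS1 points lie below all shControl points for THG1L, OSGEP, DUS2, TRMT13, TRMT5 and TYW3 and above them for YRDC and ADAT3.

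Among the 12 enzymes and subunits for base methylation of guanosine and adenosine, all 12 had a log2 fold change below 0 with all libraries (median −0.38) and 9 without shControl replicate 2 (median −0.11), when TRMT5 alone passed. METTL1, which places 7-methylguanosine in the variable loop, was at 2.29, 4.29 and 2.27 FPKM in shControl and at 1.46, 1.62 and 1.44 FPKM in shPUS1. Its groups were separate, but its log2 fold change of −0.96 (SE 0.32) did not pass (adjusted p = 0.1249, edgeR), nor did the −0.55 without shControl replicate 2 (adjusted p = 0.0958). WDR4, its partner subunit, was at 0.58, 2.18 and 0.49 FPKM in shControl and at 0.36 FPKM in each shPUS1 library. That gene had only 17 to 117 counts per library, and its log2 fold change went from −1.60 with all libraries to −0.53 without shControl replicate 2. TRMT61A and TRMT6, the subunits of the methyltransferase for adenosine in the T-loop, turned from −0.73 and −0.27 to 0.17 and 0.11 when that replicate was left out, and none of these values passed.

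Of the 8 methyltransferases for cytidine and uridine, 6 lay below 0 with all libraries (median −0.19) and 4 without shControl replicate 2 (median −0.04), and 0 passed in edgeR either way. At an unadjusted p under 0.05 with all libraries, 1 of them, NSUN3, was lower. NSUN3, which methylates the wobble cytidine of mitochondrial methionine tRNA, was at 1.18, 1.82 and 1.40 FPKM in shControl and at 0.81, 0.97 and 0.88 FPKM in shPUS1. The log2 difference of NSUN3 was −0.71 in edgeR (adjusted p = 0.110), and leaving out shControl replicate 2 gave −0.49 (adjusted p = 0.0511). METTL6, which makes 3-methylcytidine in serine tRNA, had −0.35 and −0.33. NSUN2, the main methyltransferase for 5-methylcytidine in cytosolic tRNA, stood at −0.11 with all libraries and at 0.09 without shControl replicate 2, so its sign depended on that library.

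The 3 ribose methyltransferases went separate ways. TRMT13 was lower as given above. FTSJ1, which modifies the anticodon loop, had a log2 fold change of −0.03 (SE 0.15) with all libraries and 0.11 without shControl replicate 2. TRMT44, which modifies serine tRNA, was at 1.51, 1.39 and 1.95 FPKM in shControl and at 2.21, 2.09 and 2.01 FPKM in shPUS1. Its log2 fold changes were 0.40 (adjusted p = 0.191, edgeR) and 0.32 (adjusted p = 0.137), and its groups were separate by a narrow margin.

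All 4 dihydrouridine synthases lay below 0 with and without shControl replicate 2 (median −0.39 in both). DUS2 passed without that replicate. DUS3L was at 2.26, 6.32 and 1.84 FPKM in shControl and at 1.50, 1.19 and 1.10 FPKM in shPUS1, so that shControl replicate 2 stood far above all other libraries. Its log2 fold change was −1.47 (SE 0.48, adjusted p = 0.119, edgeR), passed in DESeq2 (adjusted p = 0.0197), and was −0.66 without that replicate (adjusted p = 0.0562). The others, DUS1L and DUS4L, had −0.13 and −0.19 with all libraries and −0.06 and −0.13 without it. The count of DUS4L is uncertain, because the gene overlaps DUS4L-BCAP29 over 14553 bases on the same strand. DUS4L-BCAP29 had −0.27 with all libraries and 0.23 without shControl replicate 2.

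The enzymes that act on the base after the anticodon were the 1 role with genes called in both directions without shControl replicate 2, OSGEP lower and YRDC higher. OSGEPL1, the mitochondrial counterpart of OSGEP, was at 2.88, 3.50 and 2.16 FPKM in shControl and at 1.60, 1.16 and 1.75 FPKM in shPUS1. Its log2 fold change was −0.91 (adjusted p = 0.0972, edgeR) and −0.71 without shControl replicate 2 (adjusted p = 0.0584), close to the threshold both times. TRIT1, CDK5RAP1 and CDKAL1, which add or finish isopentenyl and methylthio groups on the same base, had −0.26, −0.05 and −0.26 with all libraries and −0.28, 0.10 and −0.06 without shControl replicate 2, so that CDK5RAP1 turned direction.

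Wybutosine, a bulky base beside the anticodon of phenylalanine tRNA, is built by TRMT5 and then TYW1, TRMT12, TYW3 and LCMT2. The last 4 all lay below 0 with all libraries (median −0.37) and 3 did without shControl replicate 2 (median −0.19). LCMT2 was at 0.88, 2.04 and 0.84 FPKM in shControl and at 0.58, 0.75 and 0.68 FPKM in shPUS1, and its log2 fold change moved from −0.90 to −0.33 without that replicate. TYW1 and TRMT12 had −0.28 and −0.05 and overlapping groups, and without it −0.06 and 0.06. A stretch of TYW1 is shared with its copy TYW1B (14.2% of its 100-base stretches), which makes the TYW1 count uncertain.

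Queuosine is put into tRNA by a transglycosylase of QTRT1 and QTRT2. QTRT1 was at 3.07, 6.97 and 2.35 FPKM in shControl and at 1.85, 1.91 and 1.94 FPKM in shPUS1. The shPUS1 libraries hardly differed among themselves and lay below all shControl libraries. Its log2 fold change was −1.12 (adjusted p = 0.142, edgeR), passed in DESeq2 (adjusted p = 0.0469), and was −0.47 without shControl replicate 2. QTRT2 had −0.36 and −0.02.

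The 10 mitochondrial enzymes had a median log2 fold change of −0.09 and the other 45 one of −0.32, and without shControl replicate 2 these were −0.06 and −0.11. The 4 enzymes listed for the mitochondrial wobble base, with MTO1 and GTPBP3 for the taurine group, TRMU for thiolation and ALKBH1 for formylcytidine, had a median of 0.13 (0.18 without shControl replicate 2), and 1 of them lay below 0. ALKBH1 also acts outside mitochondria and was counted among the other 45 genes above. Those 45 were not sorted further by place of action, so the medians do not set mitochondrial against cytosolic enzymes. MTO1 was at 3.25, 3.51 and 2.85 FPKM in shControl and at 3.55, 3.54 and 3.74 FPKM in shPUS1 (log2 fold change 0.19, adjusted p = 0.410, edgeR, and 0.28 without shControl replicate 2). MTO1 overlaps EEF1A1, at a mean of 1022 FPKM in shControl, over 19929 bases on the opposite strand, and whether the counting used strand is not stated in the sources used here. No role was tested against another.

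**Figure D3:**
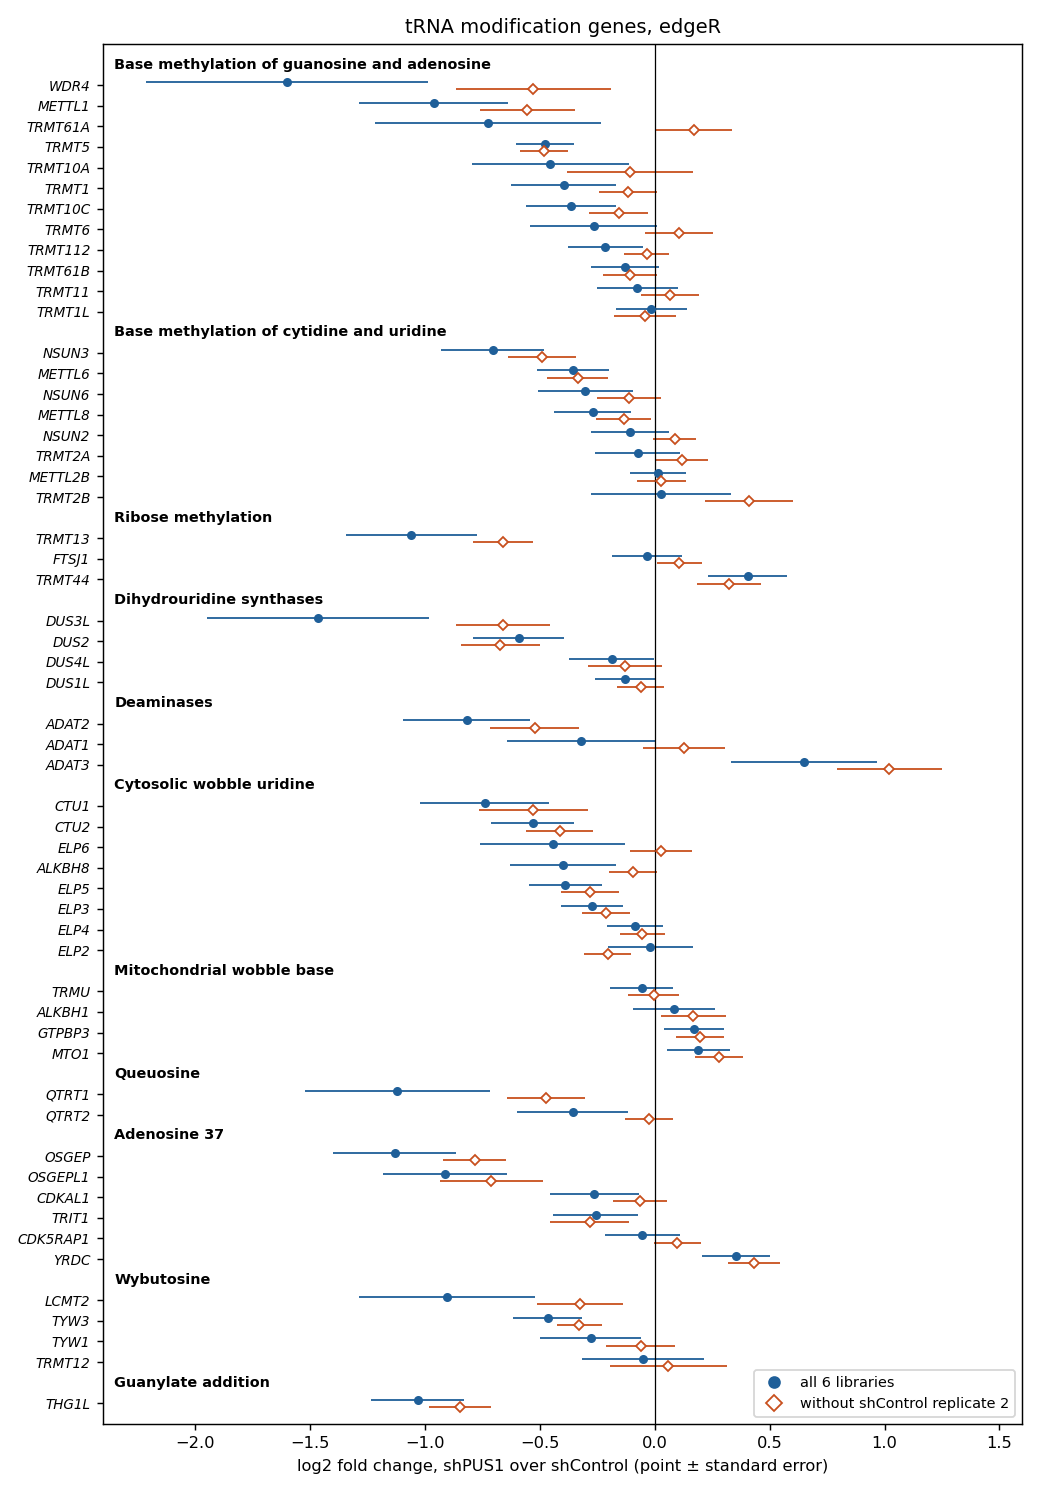
Log2 fold change of shPUS1 over shControl for the 55 genes grouped by role, with its standard error, from edgeR with all 6 libraries (filled circles) and without shControl replicate 2 (open diamonds). Leaving the library out moved most of the points with a value below −0.5 toward 0, while TRMT5 stayed in place, DUS2 moved slightly down and ADAT3 moved away from 0.

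Many of these enzymes work in complexes, and subunits that were not among the 55 genes were read beside them. In KEOPS, 4 of the 5 subunits had log2 fold changes below 0, namely OSGEP (−1.13), LAGE3 (−0.98), GON7 (−0.80) and TPRKB (−0.63), and without shControl replicate 2 they stood at −0.78, −0.46, −0.51 and −0.29. LAGE3 was at 8.85, 20.40 and 9.69 FPKM in shControl and at 7.17, 6.67 and 5.79 FPKM in shPUS1. GON7 was at 7.52, 11.87 and 7.30 FPKM in shControl and at 5.12, 4.75 and 5.35 FPKM in shPUS1. Both were separate between the groups, and neither passed in edgeR without shControl replicate 2 (adjusted p = 0.0812 and 0.0550). TP53RK, the kinase subunit, had 0.18 and 0.26.

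Thiolation of the wobble uridine runs from the sulfur donor NFS1 through MOCS3 and the carrier URM1 to the enzyme of CTU1 and CTU2. All 5 genes had log2 fold changes below 0 in both fits. NFS1 was at 7.31, 5.60 and 6.75 FPKM in shControl and at 4.64, 4.21 and 5.07 FPKM in shPUS1, with shControl replicate 2 the lowest of its group. With all libraries the log2 fold change was −0.47 in edgeR (adjusted p = 0.107), and NFS1 passed without that replicate at −0.56 (SE 0.11, adjusted p = 0.0136). CTU2 was at 6.68, 7.41 and 5.60 FPKM in shControl and at 4.52, 3.93 and 5.01 FPKM in shPUS1. CTU2 and CTU1 were separate between the groups without passing in edgeR, at −0.53 and −0.74 with all libraries and −0.41 and −0.53 without shControl replicate 2 (adjusted p = 0.0814 and 0.152).

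Elongator, which starts the same wobble modification, stayed within narrow bounds. Its subunits ELP2 to ELP6 had log2 fold changes between −0.44 and −0.02 with all libraries and between −0.28 and 0.03 without shControl replicate 2. ELP3, the catalytic subunit, was at 6.37, 6.84 and 6.26 FPKM in shControl and at 5.72, 5.13 and 5.05 FPKM in shPUS1. Its groups were separate, and its log2 fold change was −0.27 (SE 0.14, adjusted p = 0.249, edgeR). The deaminase pair was split. ADAT2 was at 0.78, 1.27 and 0.80 FPKM in shControl and at 0.59, 0.47 and 0.54 FPKM in shPUS1, with a log2 fold change of −0.82 (adjusted p = 0.127, edgeR) and −0.52 (adjusted p = 0.0951) without shControl replicate 2, where that of ADAT3 was positive. The test of the difference between paired subunits was not run.

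**Figure D4:**
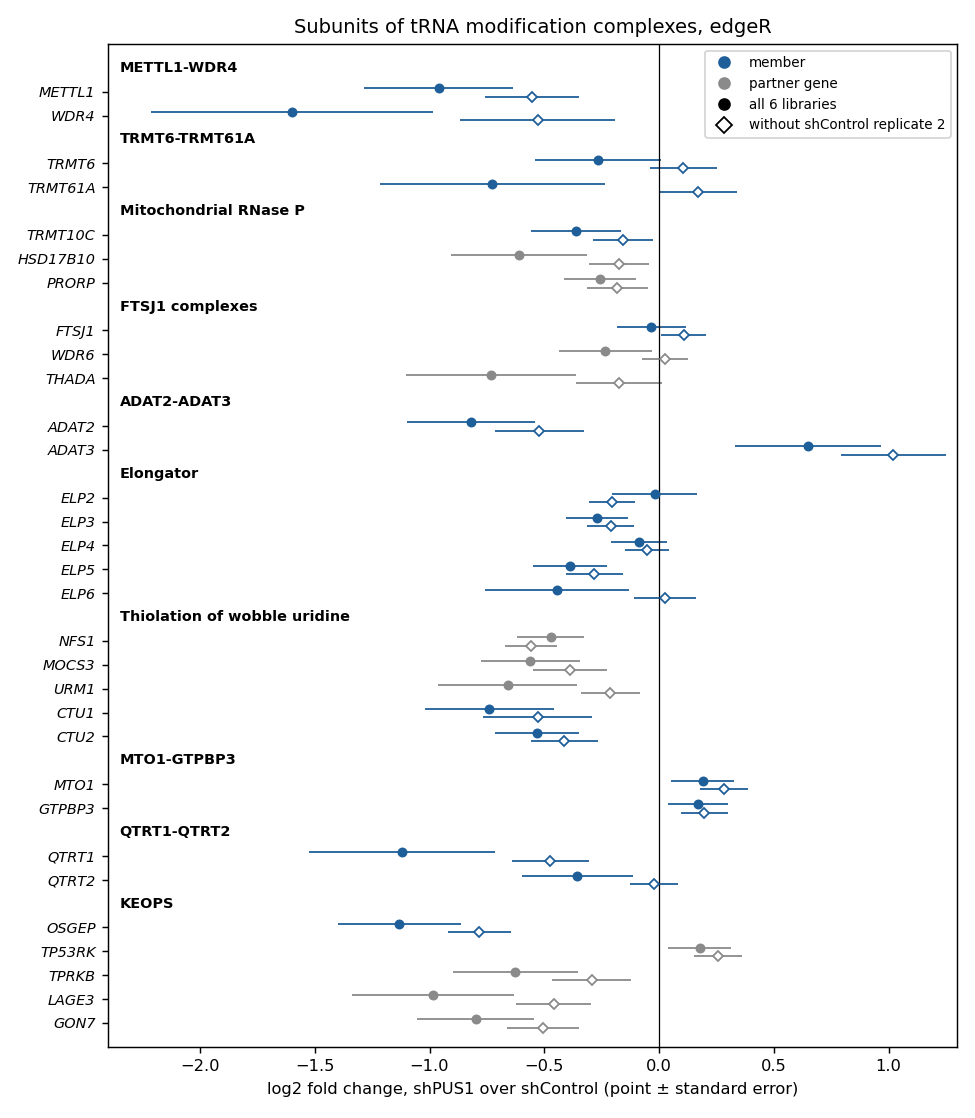
Log2 fold change of shPUS1 over shControl, with its standard error, for subunits of 10 tRNA modification complexes and pathways, among the 55 genes (blue) and outside them (grey), from edgeR with all 6 libraries (filled) and without shControl replicate 2 (open). In KEOPS, 4 of 5 subunits lie below 0 and TP53RK above it, all 5 thiolation genes lie below 0, and ADAT2 and ADAT3 lie on opposite sides.

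Counting all further genes of tRNA modification that were read this way, 22 of 23 could be tested, since TRMT9B fell under the filter. With all libraries 0 passed in edgeR in either direction, 5 were lower at an unadjusted p under 0.05, and DESeq2 called 0. The median log2 fold change was −0.44, and 17 of the 22 lay below 0. Without shControl replicate 2 the median was −0.17, NFS1 and DALRD3 were lower and 0 were higher. DALRD3, which helps METTL2 enzymes act on arginine tRNA, was at 8.47, 7.06 and 9.30 FPKM in shControl and at 6.95, 6.84 and 6.33 FPKM in shPUS1, and its log2 fold change without that replicate was −0.36 (adjusted p = 0.0386, edgeR).

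Levels per length differed far more between genes than between groups. The mean over the 6 libraries ran from 0.722 to 114 FPKM with a median of 4.003 FPKM, against a median of 4.61 FPKM over all tested genes, and 37 of the 55 genes lay between 2 and 10 FPKM. TRMT112, the small activator that several methyltransferases need, was the highest at 114.64, 148.59 and 107.28 FPKM in shControl and 101.34, 100.90 and 113.54 FPKM in shPUS1. NSUN2 at a mean of 39.2 FPKM and TRMT10C, the methyltransferase subunit of mitochondrial RNase P, at 25.2 FPKM came next. These 3 kept this order within each library. Across libraries the ranges of NSUN2 and TRMT10C overlapped, with NSUN2 at 34.68 FPKM in shControl replicate 3 and TRMT10C at 35.22 FPKM in shControl replicate 2. For each of the 3, shControl and shPUS1 overlapped. At the low end, WDR4, ADAT2 and TRMT10A had means of 0.722, 0.742 and 0.847 FPKM, and their ranges overlapped each other. In bulk RNA, fewer cells with a transcript and less of it per cell cannot be told apart.

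The 55 genes lie on 21 chromosomes, and many share their start with another gene. For 23 of them a tested gene on the opposite strand starts within 1000 bases. Of these 23 neighbours, 16 had log2 fold changes below 0, and 0 passed in edgeR with all libraries. OSGEP starts 102 bases from APEX1, a DNA repair nuclease, which stood at −0.94 on the log2 scale (adjusted p = 0.121) and at −0.45 once shControl replicate 2 was left out (adjusted p = 0.0289). APEX1 was the 1 such neighbour that was lower without that replicate, while COG5 beside DUS4L and DCAF17 beside METTL8 were higher. The pairs TRMT5 with SLC38A6 (−0.48 and −0.61) and NSUN3 with DHFR2 (−0.71 and −0.68) had like values with all libraries, and they overlap by 57 and 410 bases on opposite strands, so that reads from those bases, though not from the rest of each gene, cannot be told apart if strand was not used. SASS6 beside TRMT13 had −0.11, far from the −1.06 of TRMT13. LRRC39, which starts 45123 bases from TRMT13, overlaps it by 2051 bases on the opposite strand. It had −1.09 (adjusted p = 0.193, edgeR) with all libraries and −1.22 (adjusted p = 0.119) without shControl replicate 2. Its mean level was low, at 0.573 FPKM in shControl and 0.26 FPKM in shPUS1. Reads from the bases shared by TRMT13 and LRRC39 cannot be told apart either if strand was not used.

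RefSeq promoters (GRCh38.p14) were matched for 47 of the 55 genes, and the 250 bases before the start were searched on both strands for the letters of 6 motifs, none of which holds another. The ETS core CCGGAAG was found in 15 (31.9%), against 16.1% of tested genes and 8.82% of all genes with a promoter. The cyclic AMP response element TGACGTCA was found in 5 (10.6%), against 2.89% and 1.76%. The other 4 were the E-box CACGTG in 1 (2.13%, against 8.74% and 6.49%), CCAAT in 12 (25.5%, against 35.3% and 33.0%), the GC box GGGCGG in 25 (53.2%, against 67.1% and 42.3%) and TATAAA in 3 (6.38%, against 5.45% and 11.1%). The ETS letters occurred in genes that were lower (THG1L, TRMT13) and higher (YRDC) without shControl replicate 2, and in 12 that passed in neither direction there. Matches are a description of letters and were not tested. The windows below, which touch no annotated exon, show the ETS core in TRMT13 (chr1:100132986-100133015, plus strand) and LCMT2 (chr15:43330617-43330646, minus strand) and the cyclic AMP response element in TRMT44 (chr4:8440736-8440765, plus strand), each read on the strand of its gene with the match in capitals.
TRMT13: accatcggattCTTCCGGttctgcggagga
LCMT2: atgcgctcttcCCGGAAGtgacgcacaagt
TRMT44: ccccgcctccaTGACGTCAacgcgccgcgc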

How the data were processed

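Poly(A) RNA from 3 shControl and 3 shPUS1 libraries of MDA-MB-231 cells was sequenced by the authors, aligned with HISAT2 and counted with HTSeq 0.6.1 per the submitters' processing notes. The genome build, the strand setting and the handling of reads with several matches are not given in the sources used here. The deposited estimated counts were made by the authors without normalization, and 29.8% to 31.8% of the counts above 0 were not whole. The deposited FPKM values hold the counts that the authors divided by exonic length and library total, and recomputing them gave the same values to within rounding. All 55 genes overlapped their entries in GENCODE 29 (GRCh38), 24 with the same start and end.

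After rounding the counts and removing low genes by filterByExpr, 14748 genes were tested in edgeR 4.0.16 (R 4.3.3) with TMM factors, a quasi-likelihood F test and a prior count of 0.125. The threshold was an adjusted p of 0.05 by the Benjamini-Hochberg method. Standard errors were the log2 fold change over the square root of F. The common biological coefficient of variation was 0.22, and intervals from counts would cover counting error only. limma 3.58.1 and DESeq2 1.42.0 served for alternatives, pandas 2.3.3 and matplotlib 3.10.9 for tables and plots. The test was checked on simulated data. Alternatives were other scalings, no filter, DESeq2, voom with sample quality weights, a replicate block, each library left out, limma on log2(FPKM + 1) and log2(FPKM + 0.1) over genes with a mean of at least 1 FPKM, and other thresholds. DESeq2 without shControl replicate 2 was added after seeing the data. Same-numbered libraries deviated from their group means with correlations of −0.05, −0.03 and −0.19. No pairing by number was seen, but so few libraries cannot show that none exists.

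The 55 genes, their roles and the further genes of tRNA modification were chosen with earlier results of these data known. Genes were named by rule: the 2 with the smallest p in each role, the 3 highest and 3 lowest by FPKM, those past the threshold with all libraries or without shControl replicate 2, PUS1, and subunits of complexes of named genes. Others were named after their values were seen. A few genes are not reported here.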

Additional observations from a re-analysis of the deposited data

How the results depend on the processing

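Of the 55 genes, 1 was lower and 0 were higher with all libraries in edgeR. The numbers of lower genes were 5 with no filter on low counts, 7 with DESeq2, 8 with voom and sample quality weights, 5 with DESeq2 without shControl replicate 2 (added after seeing the data) and 17 at an unadjusted p under 0.05. The numbers of higher genes were 2 with voom, 2 with DESeq2 without shControl replicate 2 and 2 at an unadjusted p. Leaving out single libraries gave 0 to 6 lower and 0 to 2 higher genes, with the highest counts in both directions without shControl replicate 2 and 0 lower without shControl replicate 1 or any of the shPUS1 replicates. With the replicate block in edgeR 0 were lower (THG1L adjusted p = 0.128). Whether libraries of the same number belong together is not stated, and the correlations given above showed no pairing. DESeq2 size factors, totals without TMM, both limma fits and a fold threshold gave 1 and 0. The cause of these differences was not tested. The median log2 fold change of the 55 genes stayed below 0 in all fits, between −0.41 and −0.09, the latter with DESeq2 without shControl replicate 2. Over the 28 genes named by rule, PUS1 included, 365 of the alternative values kept direction and side of the threshold, 32 passed newly, 12 no longer passed and 3 reversed. The reversed values were those of NSUN2, at 0.087 without shControl replicate 2, the highest of −0.24 to 0.087 over the libraries left out, 0.052 with voom and 0.10 with DESeq2 without shControl replicate 2. Depth limits WDR4 most, at 17 counts in its lowest library.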
